A study of Arabidopsis thaliana with 24 samples.

Results

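PYK10 (AT3G09260, also named BGLU23) and its relatives BGLU19 (AT3G21370), BGLU21 (AT1G66270), BGLU24 (AT5G28510) and BGLU25 (AT3G03640) are beta-glucosidase genes of Arabidopsis thaliana. They were chosen by name: the platform annotation pairs each of the 5 with 1 probe set of its own, out of 16746 probe sets with a single gene and 17504 with any gene. The choice was made with results of these arrays known. PYK10 had been singled out by the difference between leaf tip and petiole base in control plants, and its relatives were added to it. That difference is therefore given as a description, and whether other values also led to the choice was not recorded. The other comparisons were tested in a fit of all 17504 probe sets, and their adjusted p-values are not corrected for that choice.

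ER bodies are compartments that Brassicaceae plants form from the endoplasmic reticulum and fill with beta-glucosidases. These enzymes split glucosides, among them indole glucosinolates, when a wounded cell mixes its contents, and they serve in defence against herbivores and microbes. PYK10 is the main enzyme of ER bodies in roots and seedlings, where BGLU21 and BGLU22 accompany it, and BGLU19, BGLU24 and BGLU25 belong to the same subfamily. NAI1 is a transcription factor for PYK10 and other ER body genes, NAI2 is a protein needed to form ER bodies, and jacalin-related lectins (JAL) and GDSL lipase-like proteins (GLL) bind PYK10 in a complex.

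Transcript levels were measured on 24 Affymetrix arrays, 3 for each of 8 groups. Each plant gave its fifth-youngest leaf, from which the outermost 2.5 mm of the lamina (leaf tip) and the lowest 1.5 mm of the stalk (petiole base) were cut, under Control, Local FR, Whole FR and Touch conditions. All plants were 28 d old and grew singly at 20 °C with 9 h of light a day, and none is labelled with a mutation or transgene. All groups received 140 µmol of photosynthetic light per square metre and second, with red over far-red light (R:FR) at 2.3. Control plants stayed in that white light and Touch plants were touched in it. Local FR lowered R:FR to 0.05 at the leaf tip, and Whole FR lowered it over the rosette. Tissue was collected after 5 h. Levels are deposited log2 RMA values, from -0.479 to 13.359 over the file. Since each probe set has its own response, levels are compared between samples and not between genes. Arrays of the same group had correlations of 0.98 to 0.992 over the probe sets. A tissue section mixes cell types, so fewer cells of a type and less RNA per cell cannot be told apart.

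PYK10 was high in every petiole base and low in every leaf tip. In the Control base its log2 levels were 10.944, 10.493 and 10.539. In the Control tip they were 2.08, 2.157 and 2.773. Base and tip did not overlap. The Control means were 10.66 ± 0.25 (SD, n = 3) and 2.34 ± 0.38, a tip minus base difference of -8.32 on the log2 scale (SE 0.28), or 320-fold on the linear scale. Its base means lay between the 99.2 and 99.4 percentiles of all probe sets of a group, and its tip means between the 42.3 and 47.7 percentiles. Tip levels of that size are below the median signal, so the difference may understate the true one.

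The same contrast was found in the treated plants. Under Local FR, PYK10 was at 10.127, 11.191 and 10.557 in the base and at 2.074, 1.626 and 1.739 in the tip. Under Whole FR it was at 9.79, 9.769 and 10.516 in the base and at 2.22, 2.391 and 1.826 in the tip. Under Touch it was at 10.701, 10.231 and 10.501 in the base and at 2.837, 2.144 and 1.87 in the tip. Every base array lay far above every tip array. The tip minus base differences were -8.81 under Local FR (adjusted p = 5.1e-16 in limma), -7.88 under Whole FR (adjusted p = 1.85e-15) and -8.19 under Touch (adjusted p = 2.23e-15), each with an SE of 0.28. These are 449-fold, 235-fold and 293-fold. PYK10 had been singled out by this contrast in Control, so its rank and these tests are not independent of the choice. In each of the 4 conditions PYK10 ranked 1 of 16746 single-gene probe sets for base above tip. Such a call was common: 28.7% of probe sets were called between tip and base in Control, 29.0% under Local FR, 35.0% under Whole FR and 24.5% under Touch, and PYK10 was the 1 of the 5 genes called in each treated condition.

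**Figure D1:**
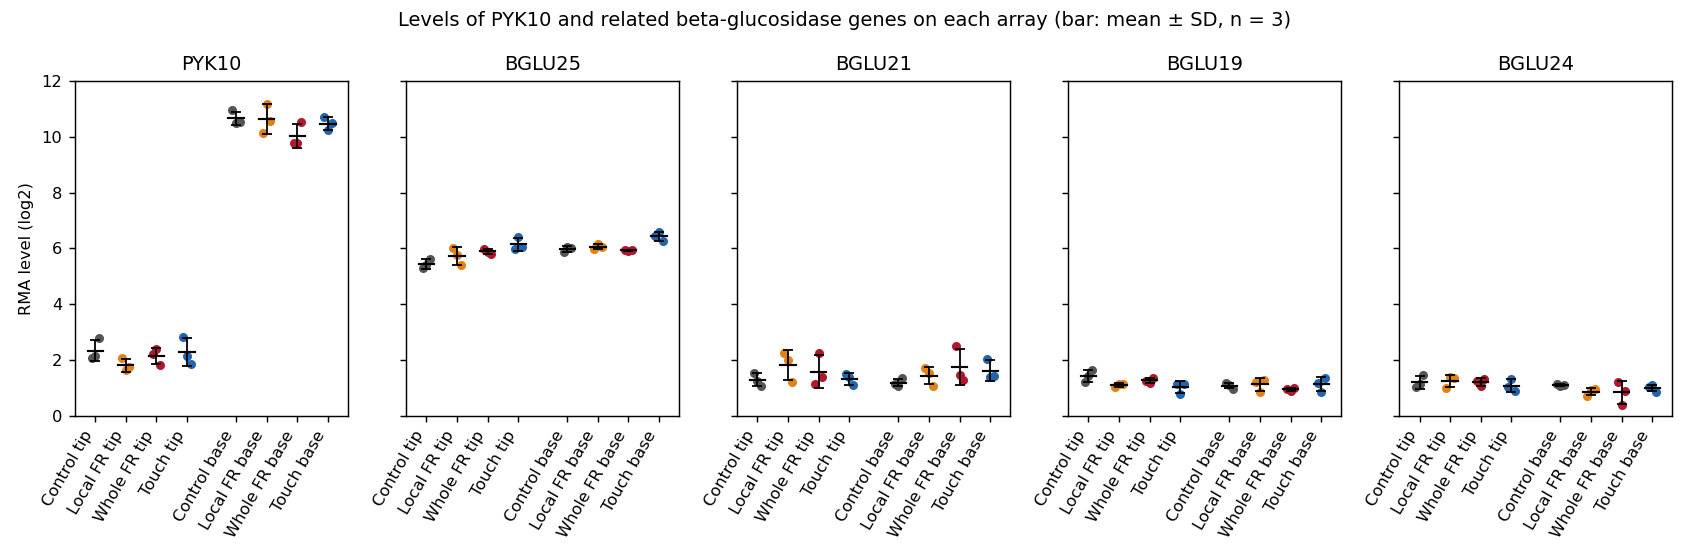
Log2 RMA level of each of the 5 beta-glucosidase genes (1 panel each) on the 24 arrays by group; points are arrays, and bars are the mean ± SD (n = 3). PYK10 sits near 10 in all 4 base groups and near 2 in all 4 tip groups, BGLU25 stays between 5.283 and 6.581, and the other 3 stay below 2.5.

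Ordered by mean, the PYK10 levels ran Control base 10.66, Local FR base 10.62 ± 0.54, Touch base 10.48 ± 0.24 and Whole FR base 10.03 ± 0.43. The tips followed, with Control 2.34, Touch 2.28 ± 0.5, Whole FR 2.15 ± 0.29 and Local FR 1.81 ± 0.23. Neighbours in that order overlapped, except Whole FR base and Control tip, whose means were 7.69 apart.

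No treatment changed PYK10 past the threshold of an adjusted p below 0.05. Whole FR in the base gave the largest difference from Control, -0.63 on the log2 scale (95% interval -1.21 to -0.06, unadjusted p = 0.0322, adjusted p = 0.164 in limma). Whole FR replicates 1 and 2 were below all Control arrays, while replicate 3, at 10.516, lay within the Control range. Local FR left a difference of -0.03 (interval -0.61 to 0.54, adjusted p = 0.997) and Touch -0.18 (interval -0.76 to 0.39, adjusted p = 0.916). Whole FR minus Local FR in the base was -0.6 (interval -1.17 to -0.03, adjusted p = 0.293).

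In the leaf tip the PYK10 difference from Control was -0.52 under Local FR (interval -1.1 to 0.05, adjusted p = 0.454). All 3 Local FR tips were below all 3 Control tips, by as little as the step from 2.074 to 2.08. Whole FR differed by -0.19 (interval -0.77 to 0.38, adjusted p = 0.778) and Touch by -0.05 (interval -0.63 to 0.52, adjusted p = 0.979). The treatment effects did not differ between tip and base past the threshold, with tip minus base effects of -0.49 for Local FR (SE 0.39, adjusted p = 0.82), 0.44 for Whole FR (adjusted p = 0.612) and 0.13 for Touch (adjusted p = 0.961). In these comparisons of effects 0 of the 5 genes were called in limma (0, 1 and 1 at an unadjusted p below 0.05), against 0.908% of probe sets for Local FR, 8.36% for Whole FR and 0% for Touch. At that unadjusted level the probe sets numbered 1562, 3460 and 1507 of 17504 in the same order.

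BGLU25 had group means between the 78 and 87.8 percentiles of all probe sets in tip and base alike. Its log2 levels were 5.283, 5.405 and 5.627 in the Control tip and 5.866, 6.064 and 6.024 in the Control base. The Control tip was the lowest group, with all its arrays below all Control base arrays. The tip minus base difference was -0.55 in Control (SE 0.15, a description), -0.33 under Local FR (adjusted p = 0.1 in limma), -0.04 under Whole FR (adjusted p = 0.885) and -0.28 under Touch (adjusted p = 0.199).

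BGLU25 rose with Touch in the leaf tip. Its arrays there were at 5.981, 6.421 and 6.052, all above the Control tip. The rise was 0.71 on the log2 scale (SE 0.15, interval 0.41 to 1.02, 1.64-fold, adjusted p = 0.0408 in limma). It was the 1 call among the 5 genes in this comparison, where 0.246% of probe sets were called, and the 1 call among 50 tests of the 5 genes in the 10 treatment comparisons. The call was lost when any array other than Control tip replicate 3 was left out. Without Control tip replicate 1 the adjusted p was 0.134, without Control tip replicate 2 it was 0.0865, and without Touch tip replicates 1, 2 and 3 in turn it was 0.0594, 0.204 and 0.0586. It was 0.0569 with cyclic loess, 0.0666 over all probe sets of the file and 0.382 with only the compared groups in the fit.

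In the base, Touch arrays of BGLU25 were at 6.431, 6.581 and 6.271, above the Control base without overlap, with a difference of 0.44 that did not pass (SE 0.15, adjusted p = 0.215). The Whole FR tip was at 5.985, 5.87 and 5.815, also above the Control tip, with a difference of 0.45 (adjusted p = 0.0644, and 0.0473 without Control tip replicate 3). The Local FR tip was at 6.018, 5.781 and 5.394 and overlapped Control (0.29, adjusted p = 0.422). In the base, Local FR (5.977, 6.164 and 6.05) and Whole FR (5.931, 5.911 and 5.94) differed from Control by 0.08 and -0.06. The Touch effect was not shown to differ between tip and base (0.27, SE 0.21, adjusted p = 0.762). In the Touch effect no probe set was called in limma, and the variance-trend fit called 3. There 1 of the 5 genes and 1507 probe sets were at an unadjusted p below 0.05. That gene was not BGLU25 but 1 of BGLU19, BGLU21 and BGLU24. The Whole FR effect of BGLU25 differed between tip and base by 0.51, which did not pass in limma. With an array left out this value ranged from 0.43 to 0.6.

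BGLU21, the companion of PYK10 in ER bodies, was below the median signal in tip and base alike, with group means between the 22.8 and 42.6 percentiles. Its group means ran from 1.19 in the Control base to 1.83 in the Local FR tip, with single arrays from 1.068 to 2.486. The highest array was Whole FR base replicate 1. BGLU22, which lies next to BGLU21 on the chromosome and has its own probe set, was at 0.721 to 1.76 over the arrays. All 24 arrays had both genes below the array's median signal. These genes resemble PYK10 in sequence and the probe sequences were not used here, so probe sets of this family may share signal. Neither was above the median signal on the arrays where PYK10 was near 10, and whether signal was shared was not tested.

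BGLU19 and BGLU24 were also below the median signal. BGLU19 ranged from 0.766 to 1.641 over the arrays and BGLU24 from 0.399 to 1.46, with every array below its median signal. The 5th and 25th percentiles of signal were 0.89 to 1.02 and 1.14 to 1.33 over the groups, so these values lie toward the low end of the signals. For BGLU19, BGLU21 and BGLU24, every pair of neighbouring groups in the order of means overlapped. Groups that were compared did not overlap in 5 of their 30 treatment comparisons and in 2 of 9 tests of tip against base under the 3 treatments. The share of all probe sets whose groups did not overlap was not counted, so these counts are a description. The Control tip of BGLU19, at 1.198, 1.443 and 1.641, lay above the Local FR tip (1.028, 1.153 and 1.132) and the Touch tip (1.154, 0.766 and 1.152). Over the 10 treatment comparisons their differences ran from -0.4 to 0.55 on the log2 scale, and 0 of 30 passed in limma, with 2 of the 30 at an unadjusted p below 0.05 and a lowest adjusted p of 0.325. In the 9 tests of tip against base under the 3 treatments, 0 passed (3 at an unadjusted p below 0.05, lowest adjusted p 0.113). Of all 17504 probe sets, 6534 were at that unadjusted level under Local FR, 7280 under Whole FR and 5880 under Touch. Both treatment-comparison values at that level were of BGLU19 in the tip, -0.32 under Local FR and -0.4 under Touch. Each had an adjusted p of 0.363 in limma.

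By comparison, the 5 genes had 0 calls in limma against a background of 2.05% for Local FR and 7.91% for Whole FR in the tip, and of 1.06% for Local FR, 13.3% for Whole FR and 0.211% for Touch in the base. For Whole FR against Local FR the background was 2.23% in the tip and 5.47% in the base, and for Local FR against Touch 1.38% and 3.81%, again with 0 of the 5 called. At an unadjusted p below 0.05, 9 of the 50 tests passed, 5 of them of BGLU25 and 2 of PYK10. Of all 17504 probe sets, 1596 to 3891 were at that level per treatment comparison (Local FR and Whole FR against Control in the base).

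Several genes for the formation of ER bodies and the PYK10 complex were, like PYK10, higher in the base than in the tip. Of 16 such loci, 8 had a named probe set: NAI1, NAI2, JAL22, JAL23, JAL31, JAL33, JAL34 and GLL23. Under Local FR, 5 of the 8 were called lower in the tip (median tip minus base -3.36, against 0.044 over all probe sets, of which 15.9% were called lower), under Whole FR 6 of 8 (median -1.69 against 0.045, with 18.9% of all called lower) and under Touch 6 of 8 (median -3.5 against 0.05, with 13.3% of all called lower). NAI2 had the largest difference of the list under Local FR, -6.55 (SE 0.36, adjusted p = 5.32e-12 in limma), next to -6.02 under Whole FR and -4.79 under Touch. JAL23, a lectin of the PYK10 complex, differed by -4.99, -3.51 and -5.36 in the same order. NAI1, the transcription factor, was low in all groups, from 0.884 to 2.698, and was called under Whole FR alone (-0.97, SE 0.27, adjusted p = 0.0058). Markers of other cell types also differed between tip and base. AUR1, a kinase of dividing cells and the 1 measured of 4 such markers, was called lower in the tip under Local FR (-2.36), Whole FR (-2.79) and Touch (-2.15). Its linear level over these 3 conditions and Control was 5.66 to 12.2 in the tip and 34.7 to 114 in the base. LHCB4.2 and RCA, the 2 measured of 6 mesophyll markers, were called higher in the tip in the same 3 conditions, with a summed linear level of 2430 to 2810 in the tip and 1070 to 1780 in the base over all 4 conditions. FMA, a guard cell regulator and the 1 measured of 4 epidermal markers, was called higher in the tip under Local FR (0.99) and Whole FR (0.86). The part of these cells in the differences of PYK10 and of the list was not tested.

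**Figure D2:**
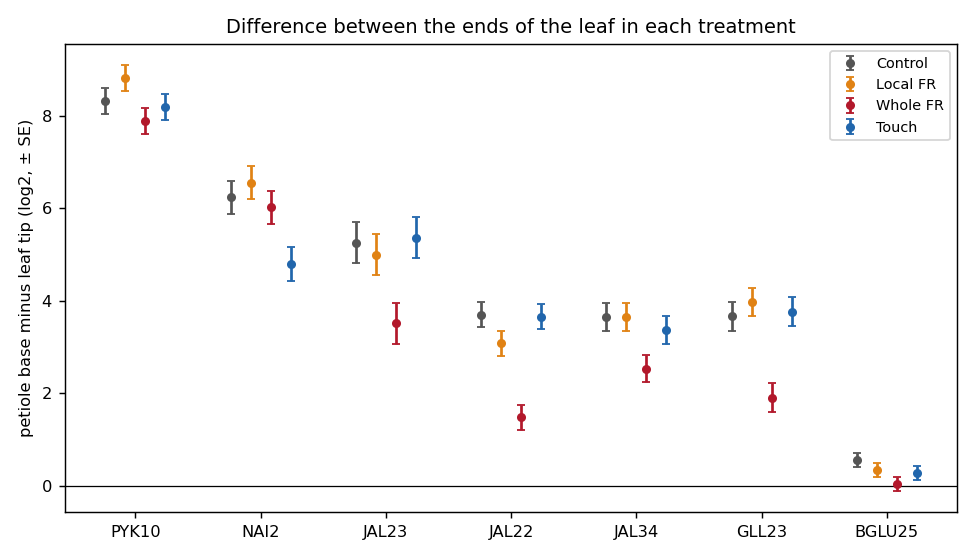
Petiole base minus leaf tip in log2 units for PYK10, 5 ER body or PYK10 complex genes and BGLU25, with 1 point per condition and bars of ± 1 SE from the fit. PYK10 has differences of 7.88 to 8.81 in all conditions, while the Whole FR points of JAL22, JAL23, JAL34 and GLL23 lie below the other conditions.

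In the petiole base, Whole FR lowered 4 of these 8 genes and raised 0 (5 at an unadjusted p below 0.05, median -1.26 on the log2 scale against 0 over all probe sets, with 6.10% of all probe sets called lower). GLL23 was at 7.987, 8.072 and 8.277 in the Control base and at 6.338, 6.167 and 6.266 under Whole FR. The groups were far apart, with a fall of 1.86 (SE 0.31, adjusted p = 0.000177 in limma). JAL34 was at 6.566, 6.433 and 5.931 against 4.306, 4.665 and 4.539, a log2 difference of -1.81 (SE 0.3, adjusted p = 0.000138). JAL22 was at 5.725, 5.605 and 4.624 against 3.495, 3.609 and 3.904, a difference of -1.65 (SE 0.27, adjusted p = 0.000131). JAL23 was at 6.962, 7.255 and 6.617 against 4.133, 5.132 and 5.933, a difference of -1.88 (SE 0.44, adjusted p = 0.00451). No Whole FR array of these 4 genes reached a Control array.

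NAI2 was at 8.812, 8.828 and 8.5 in the Control base and at 7.839, 7.796 and 7.903 under Whole FR. The groups did not overlap, and the difference of -0.87 (SE 0.36) did not pass in the fit of all arrays (adjusted p = 0.14), though it did with only the compared groups in the fit (adjusted p = 0.00602). PYK10, at -0.63, had a smaller difference than these 5 genes. The differences between PYK10 and the others were not tested. NAI1 differed by 0.24 (adjusted p = 0.708). Against Local FR, Whole FR lowered 3 of the 8 in the base, GLL23 by -1.54, JAL34 by -1.27 and JAL22 by -1.23, where 2.39% of probe sets were called lower. JAL34 missed the threshold without Whole FR base replicate 1 (adjusted p = 0.0519) and without Local FR base replicate 2 (adjusted p = 0.0697). Local FR and Touch called 0 of the 8 against Control in tip or base, with 1 at an unadjusted p below 0.05 for Touch in the tip and 0 in the other 3, and Whole FR called 0 in the tip (2 unadjusted).

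**Figure D3:**
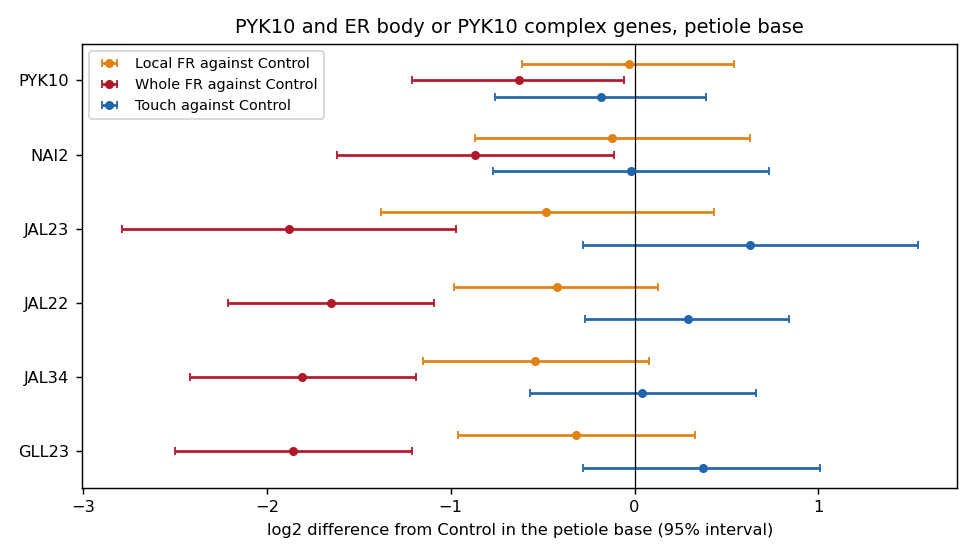
Log2 difference from Control in the petiole base for PYK10 and 5 ER body or PYK10 complex genes, with 95% intervals from the fit. Whole FR intervals of JAL22, JAL23, JAL34 and GLL23 lie below -0.9, and those of PYK10 and NAI2 reach to -0.06 and -0.11.

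Markers of other cell types were read beside that fall. The summed linear level of the 2 measured mesophyll markers was 1440 to 1770 in the Control base and 1070 to 1430 under Whole FR. LHCB4.2, a light-harvesting protein gene, fell by 0.69 (SE 0.14, adjusted p = 0.00131 in limma). RCA, the other of the 2, was not called, and the median of the 2 differences was -0.47. AUR1 had linear levels of 45.4 to 114 in the Control base and 41.2 to 62.9 under Whole FR. FMA had 20.6 to 27.1 and 24.6 to 27.5. The part of these cells in the result was not tested. EXPA7, a root hair gene and the 1 measured of 12 root markers, ranged from 0.876 to 1.793 on the log2 scale over all 24 arrays. CLV3 and LAS, the 2 measured of 8 meristem and axil markers, ranged from 0.661 to 1.507. LAS was called higher in the tip than in the base under Touch (0.42), where 11.1% of all probe sets were. That call was lost without 4 of the 6 compared arrays in turn. None of the 6 vascular markers had a named probe set.

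Of the other beta-glucosidase genes, 19 of 42 were measured. Under Local FR, Whole FR and Touch, 3, 2 and 5 of the 19 were called lower in the tip than in the base. Of all probe sets 15.9%, 18.9% and 13.3% were called lower. In the same order, 3, 2 and 1 were called higher, against 13.2%, 16.1% and 11.1%. BGLU47 differed by -4.13, -3.24 and -3.39, and BGLU33 by -1.01, -0.68 and -1.81. BGLU43 went the other way, by 0.71, 1.46 and 1.38. Some of these calls were lost when the 6 compared arrays were left out in turn. The Local FR call of BGLU43 was lost 5 times and that of BGLU32 (0.71) 4 times. The Touch calls of BGLU15 (-0.97), BGLU40 (-0.47) and BGLU46 (-1.15) were lost 3, 4 and 1 times. In the base, Whole FR lowered 2 of the 19 and raised 0 (3 at an unadjusted p below 0.05, median -0.07 on the log2 scale, with 6.10% of all probe sets called lower). BGLU44 was at 10.505, 10.605 and 10.512 in the Control base and at 9.156, 9.172 and 8.902 under Whole FR, a log2 difference of -1.46 (SE 0.11, adjusted p = 5.19e-09 in limma). BGLU47, of the clade of monolignol glucosidases that act in lignin formation, was at 7.87, 7.908 and 7.096 against 5.504, 5.698 and 5.358, a difference of -2.1 (SE 0.26, adjusted p = 5.64e-06). In the tip under Whole FR, BGLU47 had a difference of -1.27 (adjusted p = 0.00333) and BGLU41 of 0.81 (adjusted p = 0.00213), 2 calls of 19 where 7.91% of all probe sets were called. BGLU47 also rose with Touch in the tip, by 1.25 (adjusted p = 0.0472), 1 call of 19 against 0.246% of all probe sets, which was lost without any 1 of the 6 arrays.

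Glucosinolates are the substrates named for PYK10, but few genes of their synthesis had a named probe set: UGT74B1, 1 of 18 indole pathway loci, and UGT74C1, 1 of 16 aliphatic pathway loci. Of 13 loci for glucosinolate breakdown, 0 were measured. UGT74B1, a glucosyltransferase that adds the glucose, fell under Whole FR in the base by 2.25 (SE 0.16, adjusted p = 1.81e-09 in limma), from a mean of 7.8 ± 0.06 to 5.55 ± 0.03. UGT74C1 fell by 2.29 (SE 0.2, adjusted p = 2.66e-08), from 7.66 ± 0.18 to 5.37 ± 0.14. In that comparison 6.10% of all probe sets were called lower. Both genes were also called lower under Whole FR in the tip (-0.65 and -0.82), where 3.90% of all were. Without Control tip replicate 1 these tip calls were lost (adjusted p = 0.0725 and 0.052 in limma). That of UGT74B1 was also lost without Whole FR tip replicate 2 (adjusted p = 0.0795 in limma). It was lost too with only the compared groups in the fit (adjusted p = 0.0668). The UGT74C1 tip call was also lost without Whole FR tip replicate 3 (adjusted p = 0.0511). For Local FR against Touch in the base both genes were called lower too (-0.83 and -0.9), with 2.33% of all. There the UGT74B1 call was lost with only the compared groups in the fit (adjusted p = 0.065 in limma). The UGT74C1 call was lost without Local FR base replicate 2 (adjusted p = 0.0804), Local FR base replicate 3 (0.0607) or Touch base replicate 2 (0.0593).

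Likeness to PYK10 was measured by Pearson's r across arrays, as a description, since the arrays share the tip to base difference. Over 24 arrays, among 4459 single-gene probe sets whose group means ranged over at least 1 log2 unit, the nearest 5 were AT1G68330 (0.995), AT3G46490 (0.994), AT1G26450 (0.992), AT1G66430 (0.988) and AT1G31710 (0.988). Over the 12 base arrays, which share the treatments, the nearest of 1146 were AT2G04100 (0.778), AT1G78860 (0.768), AT1G35350 (0.753), AT1G05370 (0.722) and JAL23 (0.715). NAI2 reached 0.799 there but its group means ranged over less than 1 unit, so it stood outside the ranking. Among the 5 beta-glucosidase genes, r with PYK10 over the base arrays was 0.156 for BGLU19, -0.407 for BGLU21, 0.345 for BGLU24 and 0.17 for BGLU25.

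**Figure D4:**
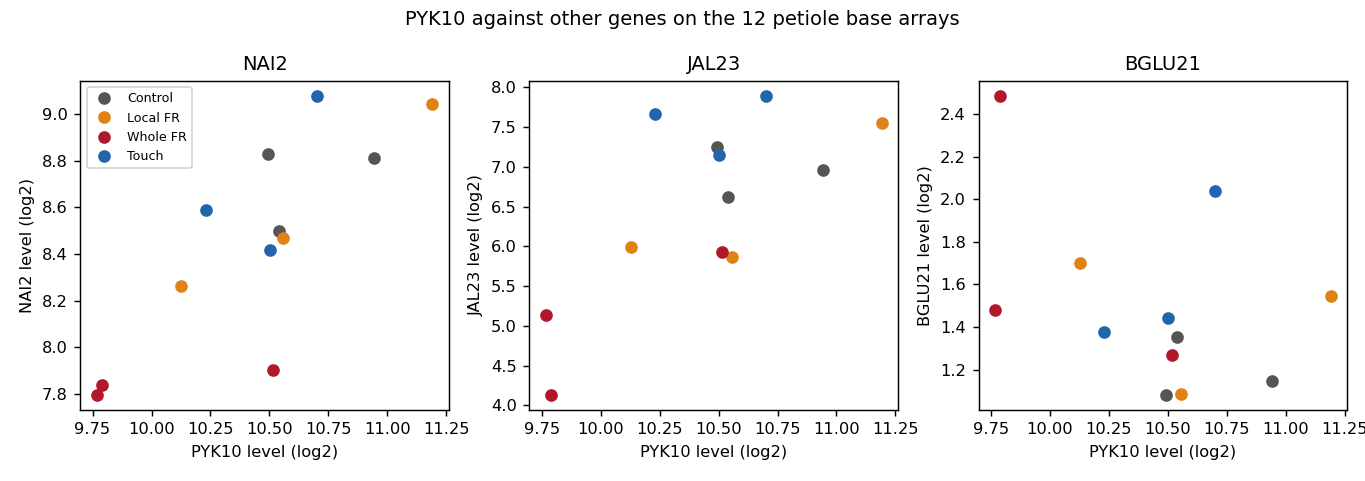
Log2 level of NAI2, JAL23 and BGLU21 against that of PYK10 on the 12 petiole base arrays, coloured by condition. Arrays with more PYK10 had more NAI2 (r = 0.799) and JAL23 (r = 0.715), and Whole FR replicates 1 and 2 had the lowest PYK10 (9.79 and 9.769) while replicate 3 (10.516) lay among the other conditions. BGLU21 showed r = -0.407.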

How the data were processed

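The authors deposited log2 values from RMA in Expression Console, summarised per core gene, per the labels. RMA corrects background, equalises the distributions of arrays and summarises probes, so a shift shared by all genes is removed. Its version, annotation release and genome build are not given in the sources used here, so no coordinates are printed. Genes were named from single-gene probe sets. Of 38408 probe sets, 17504 had a gene and 20904 were not listed. The model in limma 3.58.1, run in R 4.3.3, took all 24 arrays, with 1 mean per group, 16 residual degrees of freedom and eBayes. Each of 17 comparisons was two-sided, with p-values adjusted by Benjamini-Hochberg over the 17504 probe sets and a threshold of 0.05. The number of arrays, 3 per group, limits the precision. The labels state 3 independent biological replicates. The members, the 11 lists (145 loci, 36 measured) and the tests were chosen with earlier results of these data known. The text names the 5 members, up to 4 called genes of each list and comparison, and the 5 nearest genes by likeness. Other genes, such as uncalled list members and genes whose calls were lost, and markers were named after their values were seen. The test was checked on simulated data. Same-numbered arrays were compared by the correlation of their deviations from group means. For Local FR against Control in the base these were 0.1, 0.183 and 0.437. In each other comparison at least 1 pair was below 0.1. Even so, the same-numbered array was the best match in 6 of 6 cases for tip against base under Local FR and Whole FR. It was so in 5 of 6 under Control and Touch, and in as few as 3 for Whole FR against Control. The main fit did not pair tip and base, though both were cut from the same leaf of a plant. Alternatives were a replicate block, a fit restricted to the compared groups, each array left out in turn, robust eBayes with a variance trend, cyclic loess, all probe sets of the file, and a filter on the dimmest 30%.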

Additional observations from a re-analysis of the deposited data

Results flagged for a closer look

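The Whole FR effect differed between tip and base, by the interaction test in limma, for BGLU44, JAL22 and GLL23, with tip minus base effects on the log2 scale. The value was 1.43 for BGLU44 (adjusted p = 3.14e-06), 2.21 for JAL22 (adjusted p = 0.000478) and 1.76 for GLL23 (adjusted p = 0.0126), and 8.36% of probe sets were called in that comparison. Of the other genes named above, UGT74B1 (1.6, adjusted p = 7e-05), UGT74C1 (1.47, adjusted p = 0.00137) and LHCB4.2 (0.79, adjusted p = 0.0135) were called there too. For BGLU44 under Local FR, every tip array lay above the Control tips and every base array below the Control bases, with a difference of effects of 0.41 that did not pass (adjusted p = 0.387).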

How the results depend on the processing

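The PYK10 difference between tip and base kept its direction and its call under every alternative run. The filter on dim probe sets left out some genes, which have no value under it. Among them were BGLU19, BGLU22, BGLU24, BGLU32, JAL31, JAL33 and LAS, so counts under that filter rest on fewer genes. The call of BGLU25 for Touch in the tip was not kept under every alternative. The number of the 5 genes called there was 0 with cyclic loess, 0 over all probe sets and 0 with only the groups compared, against 1. With only the groups compared, the ER body and PYK10 complex list had 0 calls for Local FR against Touch in the tip, 1 for Whole FR against Control in the tip and 4 in the Whole FR effect between tip and base, against 1, 0 and 2. Over all 17504 probe sets the calls in the same order were 118, 696 and 1066, against 242, 1384 and 1464. Of the 19 other beta-glucosidase genes, 7 were called between tip and base under Whole FR with cyclic loess, against 4. Of all 17504 probe sets, 5939 were called there with cyclic loess, against 6135. For Touch in the tip 0 were called with cyclic loess, over all probe sets and with only the groups compared, against 1. In that order 35 of 17504, 46 of 38408 and 0 of 17504 probe sets were called there, against 43. For Touch in the base 1 was called with the variance trend, and for Whole FR against Local FR in the tip 1 with the variance trend and 1 without the dimmest probe sets, against 0. In that tip comparison 496 of 17504 and 457 of 12252 probe sets were called under these settings, against 390. The causes were not tested, but a fit of only the groups compared has fewer arrays. It also lowered the count over all probe sets for Touch in the tip from 43 to 0 and in the base from 37 to 0, while the variance trend gave 85 in the base.

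Leaving out each array in turn, the calls among the 5 genes ranged from 0 to 1 for Touch and for Whole FR in the tip, and from 1 to 2 for tip against base under Local FR and under Whole FR. Those of the ER body list ranged from 0 to 3 for Local FR against Touch in the tip, and from 0 to 1 for that comparison in the base and for Touch in the tip. Those of the other beta-glucosidase genes ranged from 4 to 7 for tip against base under Whole FR. They ranged from 0 to 1 for Local FR in the tip and Touch in the base. For the Whole FR effect the range was 1 to 2, and for Whole FR against Local FR in the tip 0 to 2. For Touch in the tip they were 0 whichever array was left out. For Local FR against Touch in the base, 3 of the 19 were called lower with all arrays, where 2.33% of all probe sets were. These were BGLU33 (-0.67), BGLU44 (-0.52) and BGLU47 (-1.33). With an array left out 1 to 2 were called. The call of BGLU33 was lost in 6 of 6 such fits and that of BGLU44 in 2.

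Differences close to 0, none of them called, changed sign. With cyclic loess these were the Whole FR effect of BGLU19 (0.01), tip against base under Touch (-0.03) and the Touch effect (0.01) of BGLU24, and tip against base under Whole FR of BGLU25 (0.07). With an array left out, PYK10 ranged from -0.32 to 0.22 for Local FR in the base, -0.14 to 0.4 for Local FR against Touch in the base, -0.33 to 0.17 for Touch in the tip, -0.15 to 0.35 for the Touch effect and -0.32 to 0.03 for Whole FR in the tip. BGLU25 ranged from -0.01 to 0.3 for Whole FR against Local FR in the tip, and JAL31 from -0.17 to 0.04 for Whole FR in the base. BGLU19 ranged from -0.15 to 0.06 and -0.24 to 0.02 for tip against base under Local FR and Touch, -0.03 to 0.17 and -0.07 to 0.18 for Local FR and Touch in the base, -0.05 to 0.15 for Local FR against Touch in the tip and -0.15 to 0.07 for the Whole FR effect. BGLU21 ranged from -0.48 to 0.21 for tip against base under Whole FR, -0.3 to 0.04 for Local FR against Touch in the base, -0.09 to 0.15 and -0.03 to 0.52 for Touch and Whole FR in the tip, -0.07 to 0.54 for Whole FR against Local FR in the base and -0.58 to 0.11 for the Whole FR effect. BGLU24 ranged from -0.03 to 0.19 for tip against base under Touch, -0.05 to 0.17, -0.24 to 0.01 and -0.08 to 0.14 for Local FR, Touch and Whole FR in the tip, -0.14 to 0.11 for the Touch effect, and -0.16 to 0.04 and -0.22 to 0.19 for Whole FR against Local FR in the tip and base.

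With the replicate number as a block, the PYK10 difference for Local FR in the base was -0.03 (adjusted p = 0.995 in limma), the 1 comparison whose pairs all passed. The block moved no count of calls among the 5 genes or the lists by over 1.5 times, and of single genes it ended the call of BGLU43 for tip against base under Local FR.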
